A study of Mus musculus with 4 samples.

Results

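The 10 genes described here encode secreted or membrane-bound proteins of mouse milk. They are the caseins Csn3, Csn1s1, Csn2, Csn1s2a and Csn1s2b, the whey proteins Wap, Lalba and Trf, the milk mucin Glycam1 and the fat globule protein Btn1a1. They were chosen by symbol, and all 10 were found among the 32285 genes counted in each of 4 single-cell RNA-seq libraries of mammary tumors, 1 library per mouse. The genotypes were MMTV-Cre-; Frmd8 fl/fl; PyMT (Cre-, replicates 1 and 3) and, for littermates, MMTV-Cre+; Frmd8 fl/fl; PyMT (Cre+, replicates 2 and 4), with tumors taken at the endpoint of 17 to 18 weeks. Every mouse, controls included, carried both floxed Frmd8 alleles and the PyMT oncogene under the MMTV promoter. The floxed and PyMT lines were on the C57BL/6 background. Cre was driven by the same promoter, which is active in the mammary epithelium. Cells had been sorted by flow cytometry before capture, and the gate is not given in the sources used here.

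Milk proteins are made by the secretory alveolar cells of the mammary gland in late pregnancy and lactation. Prolactin acts through its receptor and the kinase JAK2 to activate the transcription factor STAT5, which, together with the glucocorticoid receptor, ELF5 and NFIB, drives their genes. Caseins assemble into micelles that carry calcium and phosphate, and Csn3 (kappa-casein) keeps the micelles stable. MMTV-PyMT tumors arise from the luminal epithelium, whose alveolar branch is the one that makes milk.

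The question put to these data was at what level each gene was found in the tumor cells, how evenly, and how much of it lay outside them. Counts are of unique molecular identifiers (UMIs), so that a captured molecule counts once whatever the length of its transcript, and levels are given as counts per 1000000 UMIs of the summed cells (CPM). Barcodes with at least 1000 UMIs and at most 20% mitochondrial UMIs were kept. These were 4922 and 5918 for the Cre- replicates 1 and 3, and 5609 and 7123 for the Cre+ replicates 2 and 4. Library totals were 112729231 to 157662955 UMIs and the median depth of kept barcodes was 12455 to 13072.5 UMIs. Pairs of libraries shared 6 to 16 barcodes. Clusters were made in each library without the milk protein genes and named from lineage markers. Tumor epithelial cells (all epithelial clusters outside the Hsd-like, or hormone-sensing, ones) numbered 1766 and 2267 in the Cre- replicates 1 and 3, and 2142 and 2699 in the Cre+ replicates 2 and 4. Values of the 4 libraries are given in this order below. In them 10 or 11 of 11 epithelial markers lay over 10 CPM, and the 16 immune markers summed to 189 to 540 CPM, against 25085 to 28950 in immune cells. Immune cells had 5 to 8 of the 11 epithelial markers over 10 CPM, with sums of 94.4 to 363 CPM against 5634 to 8057 in tumor epithelial cells. The clusters had been named from these markers, so this is not a separate check. Frmd8 was at 24.2 and 24.4 CPM in the tumor epithelial cells of the Cre- libraries and 5.33 and 10.3 in the Cre+ ones. Reads from the 3' end of the transcript lie mostly outside the floxed exons, so these levels do not check the deletion. Cre+ replicate 4 stood apart: it was deposited with every barcode, droplets without a cell included, and was made with another version of Cell Ranger. Of its 2699 tumor epithelial barcodes, 591 formed a cluster led by the immunoglobulin genes Igkc and Igha before the epithelial genes Wfdc18, Ltf and Ehf, with a median of 5261 UMIs. Without this cluster the summed level of the 10 genes in the library was 4556 CPM, against 4503 with it. Which part of any difference of this library comes from its version, its form or its mouse cannot be told apart.

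The 5 casein genes lie on chromosome 5 in the order Csn1s1, Csn2, Csn1s2a, Csn1s2b and Csn3. Wap lies on chromosome 11, Lalba and Glycam1 on chromosome 15, Btn1a1 on chromosome 13 and Trf on chromosome 9. STAT5 binds sites of the form TTCNNNGAA, a motif that reads the same on both strands. The 250 bases before the annotated start were at hand for 6 of the 10 genes (RefSeq, GRCm38.p6), and 3 of these 6 held the motif, as did 7.02% of 32851 promoters of that length. The match lies 93 bases upstream of the start in Csn2, 100 bases upstream in Csn1s1 and 145 bases upstream in Glycam1. No match was found in this stretch of Wap, Lalba or Csn1s2a. The windows are chr5:87699426-87699675 on the minus strand for Csn2, chr5:87665958-87666207 on the plus strand for Csn1s1, chr15:103565082-103565331 on the minus strand for Glycam1 and chr11:6638650-6638899 on the minus strand for Wap. Csn2, Csn1s1 and Glycam1 are shown as the 3 genes with a match, and Wap as 1 of the 3 without. Capitals mark the motif, each sequence is written 5′ to 3′, and a match of letters is not evidence of binding.
Csn2: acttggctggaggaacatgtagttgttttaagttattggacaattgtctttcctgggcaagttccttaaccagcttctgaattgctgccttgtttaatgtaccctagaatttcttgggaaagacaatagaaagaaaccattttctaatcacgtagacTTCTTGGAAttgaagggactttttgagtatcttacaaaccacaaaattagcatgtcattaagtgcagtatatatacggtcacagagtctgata
Csn1s1: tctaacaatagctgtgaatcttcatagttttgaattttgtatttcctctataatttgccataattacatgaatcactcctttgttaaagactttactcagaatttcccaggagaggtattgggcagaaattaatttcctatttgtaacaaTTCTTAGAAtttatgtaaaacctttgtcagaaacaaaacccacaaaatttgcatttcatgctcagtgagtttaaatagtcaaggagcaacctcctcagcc
Glycam1: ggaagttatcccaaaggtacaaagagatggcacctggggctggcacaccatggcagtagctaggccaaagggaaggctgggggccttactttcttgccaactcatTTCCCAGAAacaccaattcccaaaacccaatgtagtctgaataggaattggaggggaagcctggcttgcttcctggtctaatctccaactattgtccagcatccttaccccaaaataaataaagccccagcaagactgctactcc
Wap: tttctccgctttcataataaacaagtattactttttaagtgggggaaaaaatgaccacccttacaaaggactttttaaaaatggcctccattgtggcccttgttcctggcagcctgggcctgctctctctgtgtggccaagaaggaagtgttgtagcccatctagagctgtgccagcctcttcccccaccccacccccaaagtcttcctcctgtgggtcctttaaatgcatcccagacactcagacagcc

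The milk protein genes fell into 2 abundant members and 8 that were far lower. Csn3 (ENSMUSG00000001622) was highest in all 4 libraries, at 10431, 10276, 12685 and 3364 CPM, with a mean of 9189 ± 4036 (SD, n = 4). Trf (ENSMUSG00000032554), the iron carrier transferrin, was the second in all 4, at 5578, 5657, 6484 and 869 CPM (4647 ± 2552, SD, n = 4). In each library Csn3 stood above Trf, and Cre+ replicate 4 was the lowest for both. Csn3 made up 60.8% to 74.7% of the UMIs of the 10 genes and Trf 19.3% to 35.0%. All 10 together took 1.72%, 1.62%, 1.99% and 0.450% of the UMIs of tumor epithelial cells.

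The other whey proteins, Lalba and Wap, differed widely between mice. Lalba (ENSMUSG00000022991) encodes alpha-lactalbumin, the subunit that turns a galactosyltransferase into lactose synthase. It was at 525 and 69.2 CPM in the Cre- libraries and 471 and 40.2 in the Cre+ libraries, so that 1 library of each genotype was high and 1 was low. Wap (ENSMUSG00000000381), whey acidic protein, was at 546 in Cre- replicate 1 and at 51.8, 82.0 and 30.9 in the others, which left that one library apart. Its highest level was 17.7 times its lowest. Trf to Lalba was the only step between neighbours in the order of means at which the ranges over libraries did not overlap.

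Csn1s1 (ENSMUSG00000070702), alpha-S1-casein, was the steadiest of the lower members, at 73.5, 94.7, 149 and 69.9 CPM, a range of 2.12-fold. Csn2 (ENSMUSG00000063157), beta-casein, was the most uneven. In tumor epithelial cells it had 1 and 0 UMIs in the Cre- replicates 1 and 3, and 39 and 8281 UMIs in the Cre+ replicates 2 and 4, or 0.0152, 0, 0.709 and 113 CPM. Nearly all of it was thus in 1 mouse, the one in which Csn3 and Trf were lowest.

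The remaining members were scarce. Btn1a1 (ENSMUSG00000000706), butyrophilin, which takes part in the budding of milk fat globules, was at 9.03, 2.62, 28.8 and 0.984 CPM. Csn1s2b (ENSMUSG00000061388), an alpha-S2-like casein, was at 4.73, 8.92, 7.36 and 1.71. The other alpha-S2-like casein, Csn1s2a (ENSMUSG00000061937), was at 2.06, 1.12, 2.49 and 9.13, highest in the mouse that had the most Csn2. Glycam1 (ENSMUSG00000022491), a mucin of milk that is also made by high endothelial venules, was at 0.212, 0, 5.49 and 3.95. Below Trf, the rank of a gene depended on the library. Csn2 was the third in Cre+ replicate 4 and the last or tied for last in Cre- replicate 3, and Wap was the third in Cre- replicate 1 and the sixth in Cre+ replicate 4.

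**Figure D1:**
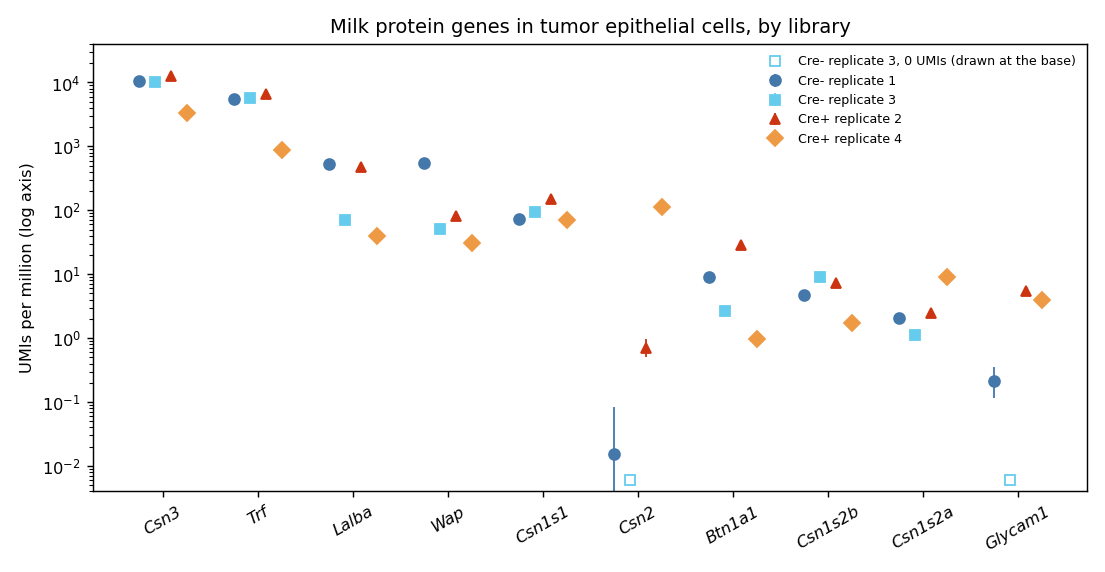
Levels of the 10 milk protein genes in tumor epithelial cells (CPM, log axis), 1 symbol per library, with exact 95% Poisson intervals that cover counting error only and open symbols at the base for 0 UMIs. Csn3 and Trf lie above the other genes in every library, and Csn2 is at 113 in Cre+ replicate 4 and below 1 in the other libraries.

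The share of cells with a UMI of a gene gave a partly different order from its level, with Trf above Csn3 in Cre+ replicate 2. To compare cells at one depth, each was thinned to 2000 UMIs, which left out 22, 186, 41 and 203 tumor epithelial cells. Csn3 was found in 96.7%, 92.0%, 90.3% and 57.5% of the thinned cells and Trf in 95.1%, 90.4%, 97.3% and 45.6%. Before thinning the shares were 98.9%, 98.1%, 99.1% and 77.4% for Csn3, at median depths of 26560, 21189, 15305.5 and 16829 UMIs. T cell-like cells, which are not known to make casein, gave the background at the same depth: Csn3 was found in 24.2%, 37.9%, 30.9% and 11.8% of them. The shares in tumor epithelial cells were above this in every library. Csn1s1 was found in 7.34%, 8.02%, 8.90% and 3.45% of thinned tumor epithelial cells, against 0%, 0.513%, 2.13% and 0.437% of T cell-like cells. For Wap the shares were 31.2%, 6.49%, 4.57% and 1.96%, and for Lalba 27.4%, 6.54%, 24.2% and 3.21%, with T cell-like shares of at most 4.04% and 2.53%. Csn2 was found in 2.92% of the cells of Cre+ replicate 4 and in 0 of 1744, 2081 and 2101 cells of the others. At this depth a floor of 3 counts stands for shares of 0.172%, 0.144% and 0.143% in them, which are not exact binomial limits. Before thinning, 1, 0 and 4 tumor epithelial cells of these libraries held Csn2.

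Within a library, the UMIs of Csn3 and Trf were spread over more cells than those of Csn1s1 and Glycam1. In Cre+ replicate 2 the thinned cells held a median of 29 Csn3 UMIs, with the middle 50% of cells between 8 and 51. In Cre+ replicate 4 the median was 1 and the upper quartile 8. The 1% of tumor epithelial cells with the most Csn3 held 5.60% to 15.4% of its UMIs over the 4 libraries, and for Trf this was 10.0% to 21.0%. For Csn1s1 the 1% held 33.9% to 69.6%, and 50% of its UMIs came from 35, 36, 38 and 10 cells. For Csn3, in contrast, 50% came from 322, 267, 310 and 163 cells. The few cells rich in Csn1s1 were seen in all 4 mice. Those with at least 10 Csn1s1 UMIs numbered 123, 150, 178 and 84 and held 86.1%, 84.5%, 90.3% and 89.9% of its UMIs. They were deep cells (medians of 49205 to 62775 UMIs), and their count rests on depth as well as on level. Glycam1 was narrower still. In Cre- replicate 1 all 14 of its UMIs were in a single Bsl-like (basal) cell. With the barcodes of the highest doublet scores left out, Glycam1 in this library was at 0 CPM. In Cre+ replicate 4, 223 of 289 were in 1 cell.

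Clusters of tumor cells, made without these genes, also differed in them. Csn3 ranged over the clusters of a library from 1989 to 17634 CPM and from 3135 to 15965 in the Cre- replicates 1 and 3, and from 2106 to 22673 and from 141 to 6247 in the Cre+ replicates 2 and 4. Some members peaked in the same cluster and others did not. In Cre+ replicate 4, Csn2, Csn1s1, Csn1s2b, Wap, Glycam1 and Btn1a1 were all highest in the same cluster of 520 cells. Glycam1 and Wap leaned on 1 tumor epithelial cell of this library, which held 223 and 633 of their UMIs. Cluster levels without this cell were not computed, so a shared peak of these 2 genes is not shown for the other cells. In Cre- replicate 3, Csn3, Csn1s1, Wap and Trf were all highest in the same cluster of 723 cells. In Cre- replicate 1, Wap was highest in a cluster of 448 cells, at 884 CPM, and Lalba in another of 495 cells, at 1092. In Cre+ replicate 2 the cluster with the most Csn1s1, 262 CPM in 282 cells, was the one with the least Csn3. Glycam1 reached 54.1 CPM in a cluster of 165 cells of the same library, in which Btn1a1 was also highest, at 60.1. Few cells of this library held Glycam1. Over its 2101 tumor epithelial cells thinned to 2000 UMIs the mean was 0.0190, the 99th percentile 0 and the highest cell 20 UMIs. How many cells of the cluster gave its peak was not computed. In the Bsl-like (basal) cells, Csn3 was at 6082, 4802, 4920 and 141 CPM, and Csn1s1 at 0.525, 5.57, 5.95 and 0.854. Hsd-like cells were found in Cre- replicate 1 (427) and Cre+ replicate 2 (100), with Csn3 at 2233 and 3407. The value of Cre- replicate 1 pools unlike clusters. Csn3 there ranged from 298 CPM in an Hsd-like cluster of 245 cells to 6443 in another of 81 cells.

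Csn2 came from few cells of Cre+ replicate 4. A total of 8466 Csn2 UMIs lay in 280 kept barcodes, of which 169 were tumor epithelial, 67 immune, 2 stromal and 42 unnamed. The 76 barcodes with at least 10 Csn2 UMIs held 96.1% of them, and 74 of the 76 were tumor epithelial. The 18 barcodes with at least 100 held 70.0%, and all 18 were tumor epithelial. Of these 18, 5.56% had a doublet score among the highest of the library, against 5.70% of all its barcodes. Kept barcodes of the other libraries held 1, 1 and 39 Csn2 UMIs, and 28 of the 39 in Cre+ replicate 2 lay in a single cell with Csn1s1 at 5770 and Csn3 at 56.4 CPM.

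The Csn2 cells of this mouse were unlike each other in the other caseins. The barcode with the most Csn2 had 948 Csn2, 311 Csn3 and 6 Csn1s1 UMIs. The next had 768 Csn2, 1393 Csn3 and 109 Csn1s1 UMIs, and it also held 633 Wap UMIs and the 223 Glycam1 UMIs named above. The third and the fourth had 518 and 474 Csn2 UMIs with 0 of Csn1s1. Of the 76 barcodes with at least 10 Csn2 UMIs, Csn3 was found in 76, Trf in 71, Csn1s1 in 48, Wap in 28, Csn1s2a in 26, Lalba in 20 and Glycam1 in 6. Barcodes with several milk proteins and barcodes with Csn2 and Csn3 but little else were thus both present.

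As a group, however, the Csn2 cells held more of the other scarce members than the rest of the tumor. The 74 tumor epithelial cells with at least 10 Csn2 UMIs were set beside the 2530 with none, as a description, since the cells were divided by their own Csn2 and differed in depth (medians of 49758.5 and 15863 UMIs). Csn1s2a was at 128 against 1.5 CPM, and 77.8% of its UMIs in this library came from the 74 cells. Csn1s1 was at 554 against 33.4, and 44.1% of its UMIs came from them. Glycam1 gave 80.3% of its UMIs there, most of them in the single cell above. Csn3 was at 6729 against 3151 CPM. Trf, at 774 against 874, was not higher. Single cells weighed on the group levels. Of the 74 cells, 35.1% held Csn1s2a and 62.2% held Csn1s1. One cell held 661 Csn1s1 UMIs, and another held 390 together with 183 of Csn1s2a. In the other 3 libraries the cells with at least 10 Csn1s1 UMIs were more, but held 0, 0 and 29 Csn2 UMIs, against 3002 in Cre+ replicate 4. Csn1s1 without Csn2 was the usual state in those mice. In Cre+ replicate 4, 33 of the 84 cells with at least 10 Csn1s1 UMIs held any Csn2, so most there held none as well.

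**Figure D2:**
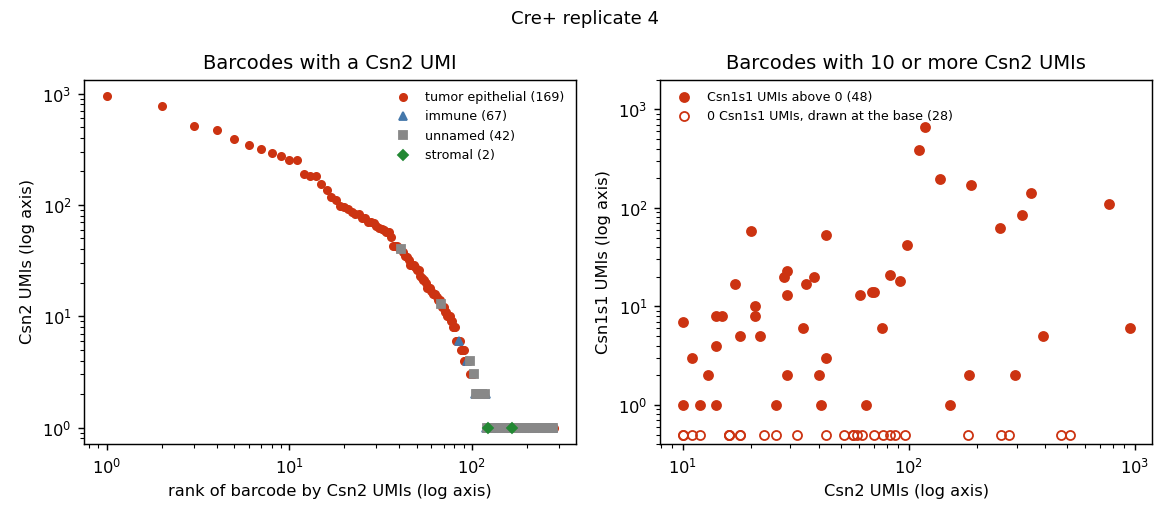
Csn2 in the kept barcodes of Cre+ replicate 4. Left, Csn2 UMIs of each of the 280 barcodes with any, by rank (both axes log), with symbols for the cell class: the highest ranks are tumor epithelial. Right, Csn1s1 against Csn2 UMIs (log axes) in the 76 barcodes with at least 10 Csn2 UMIs, of which 48 held Csn1s1 and the open symbols at the base held none.

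Csn3 was found in the same cells as Trf, Lalba and Wap more often than their separate shares would give, and so was Lalba with Trf. Co-detection was measured in thinned cells as the odds ratio that a cell with a UMI of one gene had one of the other. A small constant was added to each of the cell counts in the ratio. Of 45 pairs, 7 had at least 5 expected cells in every library. The odds ratio was above 1 in all 4 libraries for 4 of these pairs. Csn3 and Lalba gave 45.5, 8.40, 4.0 and 10.7, and Csn3 and Trf gave 12.2, 6.32, 4.01 and 3.49. The size of the 45.5 in Cre- replicate 1 rests on the added constant, because every thinned cell with Lalba there also held Csn3. For Csn3 and Wap it was 4.48, 8.33, 1.84 and 10.1, and for Lalba and Trf 2.87, 6.08, 3.82 and 3.43. The other 3 pairs were mixed, each with Cre+ replicate 2 below 1: Csn3 and Csn1s1 (1.25, 1.5, 0.518 and 4.20), Csn1s1 and Trf (1.19, 2.08, 0.756 and 2.67), and Wap and Trf (2.57, 4.25, 0.732 and 2.98). In that library a cell with Csn3 was thus less often one with Csn1s1. No pair was below 1 in every library. With cells thinned to 5000 UMIs, 14 pairs had enough cells, of which 6 were above 1 in every library and 8 were mixed. Pairs share the cells and libraries, so these values are a description with no test. The correlation of levels over cells was weak, with Spearman's rho of 0.138, 0.302, 0.298 and 0.397 for Csn3 and Trf (1744 to 2496 cells per library). Csn3 and Wap gave a rho of 0.0105, 0.113, -0.00533 and 0.152. The most common number of members per thinned cell was 3 in Cre- replicate 1 (41.9% of cells), 2 in Cre- replicate 3 (66.6%) and Cre+ replicate 2 (58.0%), and 1 in Cre+ replicate 4 (33.3%). In Cre+ replicate 4, 29.6% of the thinned cells held none, against 1.03% and 2.64% in the Cre- libraries and 0.714% in the other Cre+ library.

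**Figure D3:**
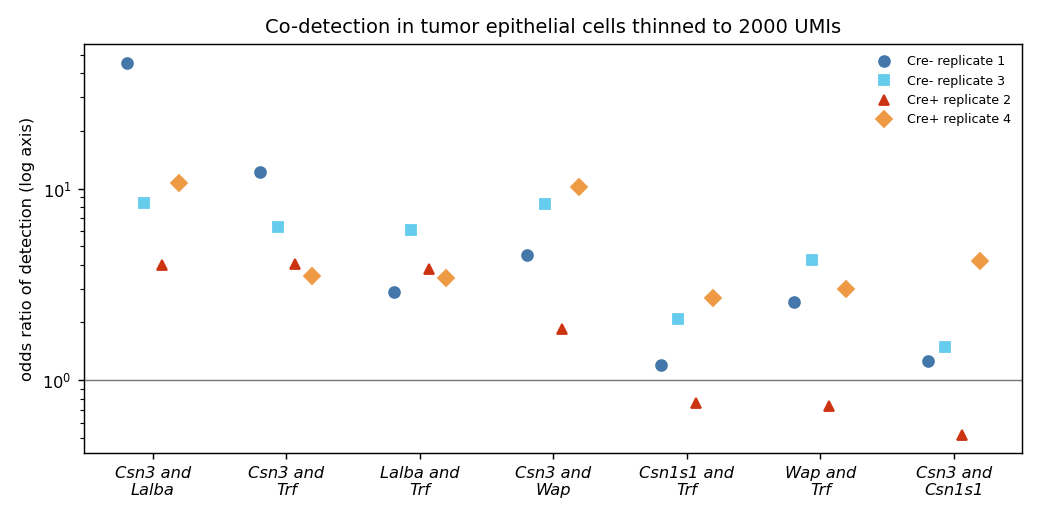
Odds ratio of co-detection (log axis) for the 7 pairs of milk protein genes with at least 5 expected cells in every library, in tumor epithelial cells thinned to 2000 UMIs, 1 symbol per library. The line marks an odds ratio of 1, above which 4 pairs lie in every library and below which Cre+ replicate 2 lies for the other 3.

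Tumor epithelial and immune cells of the same mice were compared to see how far these genes were restricted to the epithelium. Csn3 was 4.91 higher on the log2 scale in tumor epithelial cells (SE 0.57, adjusted p = 0.000153, edgeR quasi-likelihood test with Benjamini-Hochberg adjustment over all genes). It was at 357, 141, 375 and 116 CPM in immune cells, 1.37% to 3.44% of the tumor epithelial level, and the classes did not overlap. With the barcodes of the highest doublet scores left out, the level in immune cells was 150, 123, 226 and 40.9 CPM. Csn1s1 was at 2.19, 1.22, 1.91 and 1.31 CPM in immune cells, and its log2 difference was 5.57 (SE 0.30). Lalba differed by 4.87 (adjusted p = 0.0142) and Wap by 5.73. Of 9 members that passed the filter on low counts, 8 were higher in tumor epithelial cells and 0 lower, where 60.5% of 15736 genes were called, 31.3% as higher. The median log2 difference was 5.06 over the 9 members and 0.05 over all genes. Csn2 did not pass this filter. Csn1s2a, Csn1s2b and Btn1a1 passed it through the tumor epithelial sums, being at most 0.0733, 0.298 and 0.513 CPM in immune cells. They could hardly have been found lower, so their calls are not support for restriction to the epithelium. Glycam1, at 3.68 (SE 1.68), was not called (edgeR, adjusted p = 0.0907), and it was called with the mouse as a block (adjusted p = 0.0384), with a range of 0.0384 to 0.293 over 9 alternatives. Each class was summed per mouse, so the test compares 4 sums with 4.

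Trf differed less between the classes, by 2.90 on the log2 scale (SE 0.54, edgeR adjusted p = 0.00199). Its level in immune cells was 559, 445, 599 and 344 CPM, or 10.0%, 7.87%, 9.23% and 39.6% of that in tumor epithelial cells. Macrophages are known to make transferrin. Macrophage-like cells held 709, 514, 650 and 394 CPM of Trf, and T cell-like cells 190, 101.2, 138 and 30.3. The ratio of Trf to Csn3 was measured in each class. Trf UMIs per Csn3 UMI were 0.529, 0.543, 0.504 and 0.256 in tumor epithelial cells outside the Bsl-like and squamous-like clusters, and 0.468, 0.441, 0.623 and 0.588 in T cell-like cells. In macrophage-like cells the ratio was 2.63, 4.26, 2.02 and 3.22, above that of the tumor and T cell-like cells in every library. High ratios were not limited to macrophage-like cells. Monocyte-like cells of Cre+ replicate 2 had a ratio of 2.06, and those of Cre- replicate 1 had 1.65. Over the 4 libraries, dendritic cell-like cells gave 0.611, 1.53, 0.847 and 1.98, and fibroblast-like cells 0.563, 0.757, 0.784 and 2.19. In the barcodes of Cre+ replicate 4 with 1 to 100 UMIs the ratio was 0.300. The part of carried-over RNA in these ratios was not tested. Bsl-like cells also had more Trf per Csn3, at 0.890, 1.20, 1.26 and 0.829.

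**Figure D4:**
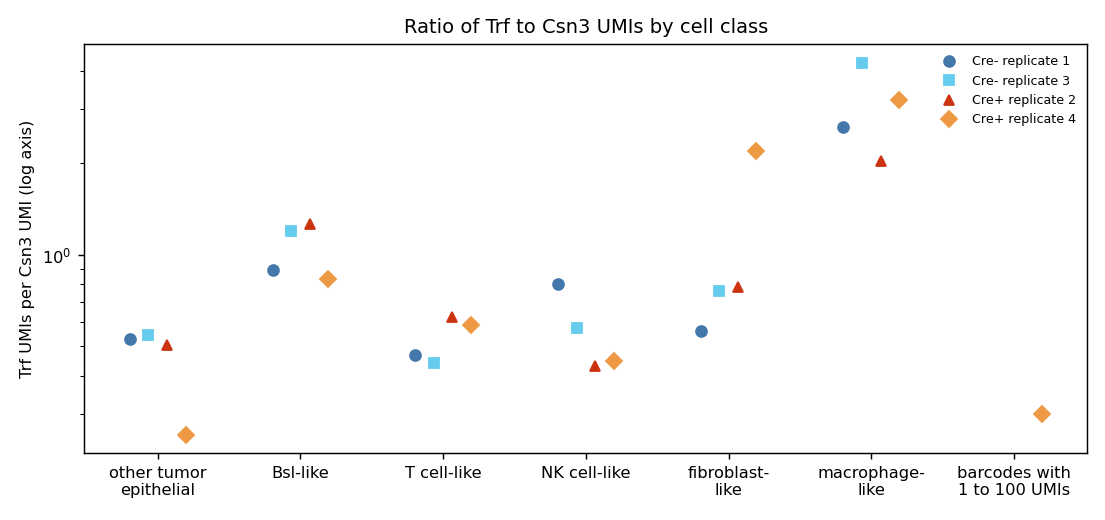
Trf UMIs per Csn3 UMI (log axis) in the summed cells of 6 classes and, for Cre+ replicate 4, in barcodes with 1 to 100 UMIs, 1 symbol per library. Macrophage-like cells lie at 2.02 to 4.26 in the 4 libraries, against 0.256 to 0.543 in the tumor epithelial cells outside the Bsl-like and squamous-like clusters.

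Cre+ replicate 4 was the only library with its near-empty droplets, and milk protein RNA was abundant in them. Its 2078989 barcodes with 1 to 100 UMIs held 4981956 UMIs, of which the 10 genes took 2117 CPM, against 4503 in its tumor epithelial cells. Csn3 was at 1541 CPM (95% exact Poisson interval 1506 to 1576), Trf at 463 (444 to 482) and Csn2 at 46.8 (41.0 to 53.2). Lalba was at 24.3, Csn1s1 at 23.9, Wap at 12.0, Csn1s2a at 4.22, Glycam1 at 1.61 and Csn1s2b at 0.401. Btn1a1 had 0 UMIs, which allows up to 0.740 by the same interval. The 9 genes found there were at 23.5% to 60.5% of their level in tumor epithelial cells, the lowest being Csn1s2b with 2 UMIs. These levels depend on the range of UMIs chosen. In the 65530 barcodes with over 100 and up to 300 UMIs the 10 genes took 3075 CPM. Csn3 was at 2404 and Csn2 at 75.2 in them, while Wap and Csn1s2a were lower than above, at 10.2 and 3.64. Intervals cover counting error only. As a share of UMIs, immune cells of this library were far below the barcodes with 1 to 100 UMIs. Csn3 was at 0.0751 times their level (116 against 1541 CPM, and 40.9 without the highest doublet scores). Csn2 was at 0.0316 times and Csn1s1 at 0.0548 times. Trf was the exception, at 0.744 times. The immune cells' own RNA enters these shares, so they do not compare amounts per barcode. The Csn2 UMIs of the 67 immune barcodes came to 1.48 CPM. Such droplets were not analysed for the other 3 libraries, whose free RNA therefore was not measured.

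**Figure D5:**
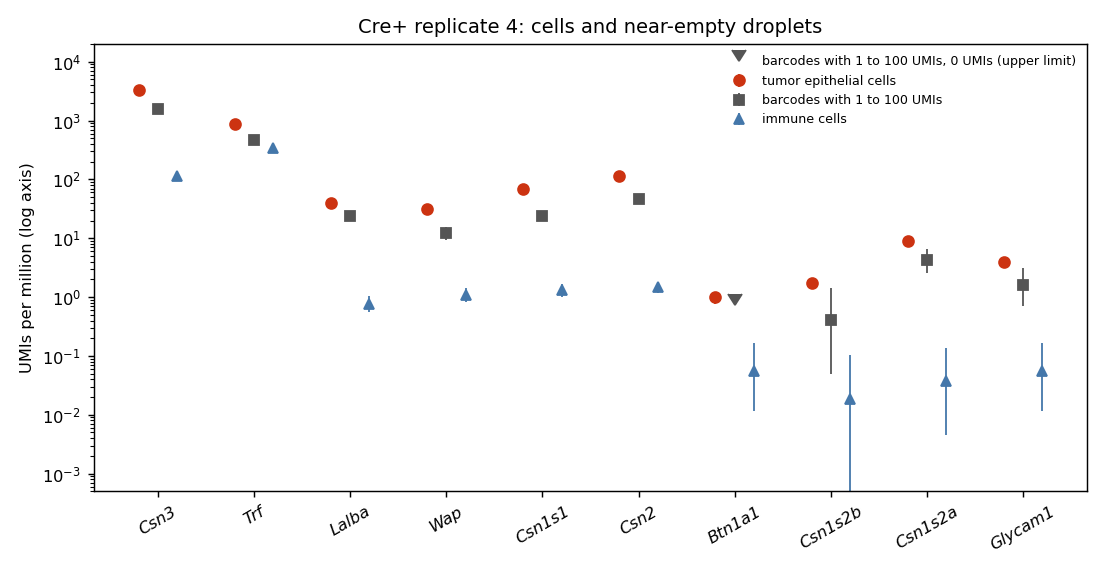
Levels of the 10 genes in Cre+ replicate 4 (CPM, log axis) in tumor epithelial cells, in barcodes with 1 to 100 UMIs and in immune cells, with exact 95% Poisson intervals and a downward mark at the upper limit for 0 UMIs. Csn3 falls from 3364 to 1541 and 116 in that order, while Trf stays at 463 and 344 in the droplets and immune cells.

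Glycam1 outside the epithelium was looked for in endothelial cells, because high endothelial venules make it. Endothelial-like cells held 15 Glycam1 UMIs in 6 of 209 cells of Cre- replicate 1, 4 in 3 of 200 cells of Cre- replicate 3 and 6 in 2 of 159 cells of Cre+ replicate 2. Among markers of these venules, Chst4 and Fut7 had 0 UMIs in all 3, Madcam1 had 3 in Cre+ replicate 2, and Ackr1, which other venules also express, had 131, 46 and 55. The cells that held Glycam1 with any of these markers numbered 2, 1 and 1. No cluster of Cre+ replicate 4 was named endothelial-like. One of 124 barcodes there, led by Sparc, Igfbp7 and Igfbp3, was left unnamed as shallow (median of 3118.5 UMIs) and held 0 Glycam1 UMIs.

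Genotype was compared in tumor epithelial cells over 2 mice a group, to ask whether milk protein genes differed with Cre. By edgeR, 0 of 16272 genes passed an adjusted p of 0.05 (0% called), 582 had an unadjusted p below 0.05, and DESeq2 called 153 of 23449. No milk protein gene was called by edgeR. Csn3 differed by -0.38 on the log2 scale (Cre+ minus Cre-, SE 0.63), Trf by -0.63 (SE 0.89), Wap by -2.41 (SE 1.17), Csn1s1 by 0.39 (SE 0.36) and Lalba by -0.25 (SE 1.36), and the genotypes overlapped in each of these 5 genes. Without Cre- replicate 1 the difference turned to 0.11 for Wap and 1.84 for Lalba, and without Cre+ replicate 2 to -0.16 for Csn1s1. The median was 0.07 over the 10 members and 0.02 over all genes. Csn2, Csn1s2a and Glycam1 were higher in both Cre+ libraries than in either Cre- one, a pattern that 14.9% of the tested genes shared, and no member was lower in both, against 15.3% of genes. Unadjusted edgeR p-values were 0.0167 for Csn2 and 0.0160 for Glycam1, and the adjusted ones were 1.00. DESeq2 called both (adjusted p = 0.00809 and 0.00104), with ranges over 13 alternatives of 0.000703 to 1.00 and 0.00104 to 1.00. A fold for Csn2 is not given, since the Cre- libraries held 1 UMI. With so few, Csn2 passed the filter on low counts through the Cre+ libraries alone, where it was high. It could hardly have been found lower, so its edgeR p-value and its DESeq2 call are not support for a difference. Glycam1 leaned on few cells in both Cre+ libraries, as given above.

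The 2 Cre+ mice were unlike each other, and leaving out either changed these values. Without Cre+ replicate 2, Csn2 was higher and Csn3 and Trf were lower in Cre+ (log2 differences of -1.52 for Csn3 and -2.59 for Trf). That fit rests on Cre+ replicate 4 alone for its genotype. Without Cre+ replicate 4, the differences for Csn3 and Trf were 0.24 and 0.16. The summed level of the 10 genes was 12209 ± 10898 CPM in Cre+ and 16665 ± 714 in Cre- (SD, n = 2 each), a difference of -4457 with an exact two-sided permutation p of 1, where the smallest p that 2 against 2 mice allow is 0.333. Without Cre+ replicate 4 the difference was 3249. The share of thinned cells with any member was 84.8% ± 20.4 against 98.2% ± 1.14 (SD, n = 2 each, exact permutation p = 1), and it turned to 1.12 points higher in Cre+ without that library. The difference between genotypes was also compared between tumor epithelial and immune cells as an interaction, and 0 of 15736 genes were called.

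Other genes of milk and of lactation were described from lists. Of 20 other milk and milk fat globule genes, 18 were tested between tumor epithelial and immune cells and 15 were called, 13 as higher, where 60.5% of all genes were called, 31.3% as higher. The highest was Wfdc18, a relative of Wap, at 25987, 15548, 12133 and 16543 CPM, above Csn3 in every library except Cre+ replicate 2. Mucl2 was lowest, at 0 to 0.06. Called as lower were Plin2, which coats lipid droplets (-1.18 on the log2 scale), and the fatty acid carrier Cd36 (-6.70), both also used by macrophages. Of 14 regulators of lactation, 10 were called, a share near that of all genes (60.5%). The 7 higher in tumor epithelial cells were the prolactin receptor Prlr (3.99), the growth hormone receptor Ghr (4.60), the transcription factors Elf5 (4.90), Ehf (4.85), Nfib (4.69) and Gata3 (3.08), and Socs2 (2.03), an inhibitor of the same signal. The 3 lower were Jak2 (-1.74), Nr3c1, the glucocorticoid receptor (-0.95), and Cish (-1.85). Stat5a and Stat5b were not called, at 0.49 (SE 0.31) and -0.63 (SE 0.25). The median was 4.52 for the first list and 2.33 for the second, against 0.05 for all genes. Between genotypes 0 of 19 and 0 of 14 were called by edgeR. Nfib was the highest regulator in 3 libraries, at 1030, 843 and 1165 CPM, and Ehf, at 609, stood above it (485) in Cre+ replicate 4.

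The genes whose level most resembled the summed milk protein level over tumor epithelial cells were found among 3968 genes present in at least 5% of the thinned cells of every library. Lcn2, lipocalin 2, an iron-siderophore binding protein, came first, with Pearson correlations of 0.564, 0.547, 0.417 and 0.529. Plet1 gave 0.339, 0.357, 0.322 and 0.378, Clca3a2 gave 0.339, 0.322, 0.369 and 0.325, and Ly6e gave 0.279, 0.340, 0.421 and 0.318. The fifth was Folr1, a folate receptor also found in milk, at 0.280, 0.250, 0.338 and 0.293. The summed level is mostly Csn3 and Trf, cells of a library share its free RNA, and the values are a description over 1744 to 2496 cells per library.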

How the data were processed

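The deposited files hold raw UMI counts for each gene and barcode, which the authors made with Cell Ranger (6.1.2 for replicates 1 to 3 and 4 for replicate 4, per the file headers), without normalization. Cells had been called in replicates 1 to 3, while replicate 4 lists 2582424 barcodes, of which 2161128 held a UMI. The submitters' notes name a human genome build although the genes are mouse, so no coordinates were taken from them, and the transgenes were not analysed here. The 10 genes, the 2 gene lists and the marker lists were chosen with earlier results of these data known. The genes named were all 10 members, list genes that passed the test or had the highest or lowest level, and the 5 genes most like the summed members.

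Barcodes with at least 1000 UMIs and at most 20% mitochondrial UMIs were kept, which removed 1069 to 1393 barcodes of a library for the latter. Doublets were kept. Each library was clustered on its own (2000 variable genes without the members, 30 principal components, 20 neighbors, leidenalg 0.10.2 at resolution 1). A marker counted as detected when 10% of a cluster's cells held it and its level was 10% of that of the library's highest cluster. A cluster needed 3 detected markers of a lineage and at most 2 of another, and 377 to 1008 barcodes of a library stayed unnamed. This naming rule was set after clusters had been seen, and no authors' annotation was used. The Hsd-like clusters needed 6 of 12 markers and the Bsl-like ones 8 of 10.

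Counts were summed per library and class and tested with edgeR 4.0.16 (quasi-likelihood test, TMM, filterByExpr, Benjamini-Hochberg adjustment, threshold 0.05), genotype in tumor epithelial cells and class with genotype in 1 model. DESeq2 1.42.0 was an alternative. Where nothing else is said, p-values measure the spread between single libraries of 2 mice a group. Both sums of a library belong to the same mouse, which pairs epithelial with immune sums by replicate number, and their deviations from the group means correlated at 0.232 for replicates 1 and 3 and at 0.473 for replicates 2 and 4. The tests were tested on simulated counts with changes put into some genes. Counts of every gene were drawn from its mean share with a common dispersion, the mean over genes. The recovery therefore does not describe genes that vary more than this between mice. At a log2 change of 1, 2 and 4 the genotype test recovered 3.08%, 36.9% and 98.4% of changed genes (16272 genes run) and the class test 21.2%, 95.4% and 100% (15736 genes run). Shares used cells thinned to 2000 UMIs (T cell-like and tumor epithelial cells alike), with exact binomial limits and a floor of 3 counts. Alternatives changed the test, the filter, the library size, the cells kept, the classes and the thinning depth.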

Additional observations from a re-analysis of the deposited data

Results flagged for a closer look

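One value lay in data that no comparison of the report used. The barcodes of Cre+ replicate 4 that were given no class held 104 Csn2 UMIs in 996 barcodes, or 25.3 counts per 1000000 UMIs (CPM) (95% exact Poisson interval 20.6 to 30.6), above the control libraries, where such barcodes were at 0 (Cre- replicate 1, which allows up to 2.56 by the same interval) and 0.192 CPM (Cre- replicate 3). Cre+ replicate 2 was at 0. Of the 996 barcodes, 42 held Csn2, and the highest of them held 40 and 13 UMIs. By cluster, Csn2 was at 61.4 CPM in 413 barcodes with 8 of 11 epithelial markers detected (median of 1352 UMIs). It was at 26.9 in 429 barcodes with 6 of them (median of 3387). In the unnamed clusters of 124 and 30 barcodes it was at 1.77 and 0. The interval covers counting error only. In the barcodes with 1 to 100 UMIs of the same library Csn2 was at 46.8 CPM. Whether free RNA gave the UMIs of the unnamed barcodes was not tested.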

How the results depend on the processing

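The genotype test called 0 genes and 0 members by edgeR and 153 genes and 2 members by DESeq2, and leaving out 1 library gave 0 to 593 genes and 0 to 3 members (593 without Cre+ replicate 2). The class test called 7643 to 10271 genes and 8 to 9 members without 1 library. The summed level differed by -12163 to 3249 CPM, and the share with any member by -27.8 to 1.12 points, the upper values without Cre+ replicate 4. The fitted log2 genotype difference changed sign for Csn1s1 under upper limits on genes and UMIs (-0.47). Over the fits without 1 library it ran from -1.52 to 0.24 for Csn3, from -2.59 to 0.16 for Trf, from -1.89 to 0.056 for Csn1s2b, from -0.16 to 0.77 for Csn1s1, from -2.47 to 2.46 for Btn1a1, from -3.28 to 0.11 for Wap and from -2.79 to 1.84 for Lalba. The sign changed without Cre+ replicate 4 for Csn3, Trf, Csn1s2b and Lalba (0.61), without Cre+ replicate 2 for Csn1s1 and Btn1a1, and without Cre- replicate 1 for Wap and Lalba. The causes were not tested. The summed level in near-empty droplets was 2070 CPM in barcodes with 1 to 50 UMIs, 3343 with 51 to 100 and 3075 with over 100 and up to 300. Leaving out 591 tumor cells led by immunoglobulin genes changed the call of no member. The class test then called 9496 genes in place of 9525. This alternative was chosen after seeing the data, as were the last of the droplet limits and the fit without Bsl-like and squamous-like clusters. With the mouse as replicate block the class test called 10168 genes in place of 9525 and 9 members in place of 8, Glycam1 being the one added, and it changed no other call of a member. No paired analysis was possible because the genotypes share no replicate numbers. Pooled over all members, both genotypes and the alternatives that kept every library, 45 means moved by more than the spread between libraries. This count was not split by member, and the spread rests on 2 libraries per genotype. For shares the alternatives included other thinning depths, which change a share by themselves. A log2 difference of 1 between genotypes is within what 2 mice a group mostly leave undetected.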
